A study of Homo sapiens with 7 samples.

Results

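MYC and its MAX network are a small family of transcription factors, represented here by the 8 genes MYC, MAX, MXD1, MXD4, MXI1, MNT, MGA and MLX. They were selected by gene symbol alone, and each had 1 transcript among the 25918 transcripts (24721 gene symbols) of the deposited table. The study mapped N6-methyladenosine (m6A), an internal modification of messenger RNA, in untreated human cells that the labels call HepG2, an established line derived from a liver carcinoma. It comprised 4 m6A-IP libraries, made from RNA fragments of about 100 nt precipitated with an anti-m6A antibody, and 3 Input libraries made without antibody. The authors deposited 1 table, whose headers do not say which of the libraries entered it. For each transcript it lists an expression quantile and, per m6A peak, its score, segment, exon and transcript position. No value was labelled with a single library, so depth is unknown and no spread between replicates could be computed. For the same reason m6A-IP was not tested against Input. Everything below is therefore a description of 1 table.

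MYC and its relatives share a basic helix-loop-helix leucine zipper domain, and they bind DNA in pairs. MAX is the common partner. MYC with MAX switches genes on, whereas MXD1, MXD4, MXI1, MNT and MGA compete for MAX and mostly switch genes off, and MLX is the partner of the glucose-sensing factors MLXIP and MLXIPL. MYC messenger RNA is short-lived, and the end of its coding sequence holds a stretch that the RNA-binding protein IGF2BP1 binds and protects. m6A is known to concentrate near stop codons and in long exons, in the consensus RRACH, where R is A or G and H is A, C or U.

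The cell type named by the labels was checked against its markers. Of 16 liver markers, 9 were tied at the lowest quantile of the table (0.314), among them ALB, AFP, TTR, SERPINA1, APOB and FOXA2, and none had a peak. The highest was FGB at 0.619. Of 8 markers of ovarian or Müllerian epithelium the quantiles ranged from 0.314 to 0.968, with MSLN at 0.968, MUC16 at 0.667 and SOX17 at 0.648. The other 5 were under 0.5, with PAX8 at 0.496, EMX2 at 0.374, KLK7 at 0.356, WT1 at 0.333 and CLDN16 at the lowest value, and the median of the list was 0.435. Thus 9 of the 16 liver markers were not detected above the lowest value of the table, and 7 were. The part of these markers in the values of MYC and its network was not tested.

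Of the 8 genes, 7 (87.5%) had at least 1 peak, with MXI1 the exception. Over all gene symbols 29.1% had a peak, and 46.4% over coding genes above the lowest quantile. The network genes were well expressed, with quantiles from 0.625 to 0.997, and 66.6% of the 9039 coding genes in that range had a peak. Read against that share, 7 of 8 was near the background and is not a result about the network. The network held 21 peaks in all, and 9 of them lay in the single long transcript of MGA. Scores ran from 2.17 to 6.76 with a median of 3.03 at MGA position 4492. The median score over the whole table was 3.15. The authors did not state the scale of the score, so it serves below only to rank peaks.

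Top scores and expression ranked the 8 genes differently. MYC had the highest top score (6.76), followed by MNT (5.49), MLX (5.41), MGA (4.95), MXD1 (4.44), MXD4 (3.57) and MAX (2.70). The median of these 7 top scores was 4.95, against 3.56 over the 7200 genes with a peak. Of the 7, 6 lay above 3.56, MXD4 by the smallest margin. A top score is the highest of a gene's peaks, and 5 of the 7 had at least 2 peaks. The median was 1 peak among coding genes with a peak near each quantile. Over all peaks, the network median of 3.03 was under the 3.15 of the table. The effect of peak number on top scores was not tested. By expression the order was MYC (0.997), MNT (0.908), MXD4 (0.906), MAX (0.882), MLX (0.869), MXI1 (0.728), MGA (0.725) and MXD1 (0.625). MNT and MXD4, and likewise MXI1 and MGA, had nearly the same quantile. With no replicate values, whether these neighbours differ could not be tested. MAX, the shared partner, had the lowest top score of the 7.

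**Figure D1:**
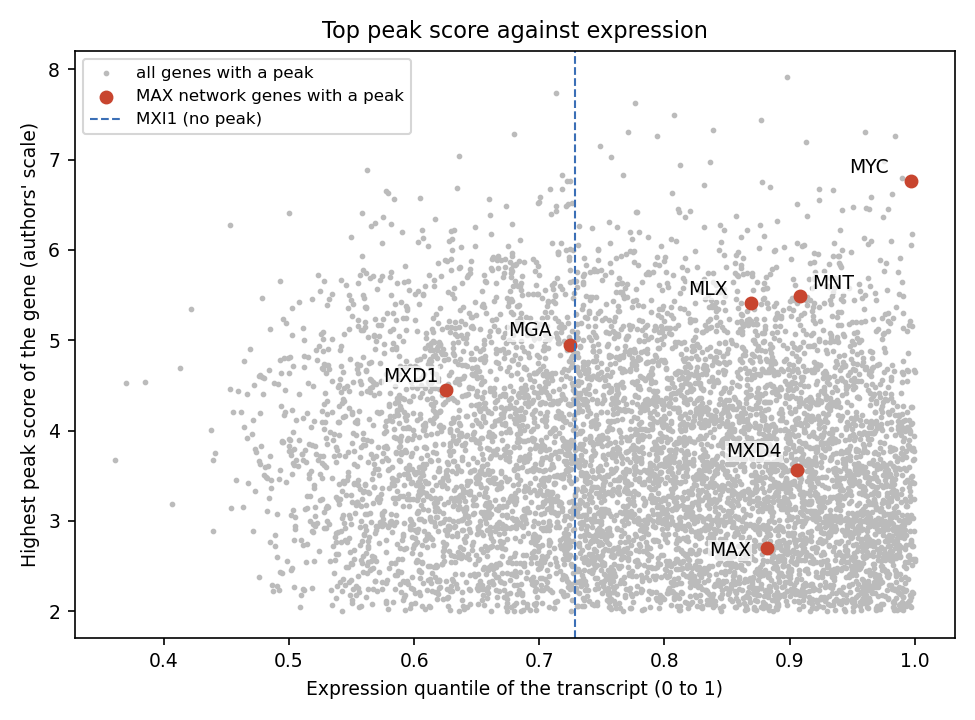
Highest peak score of each gene (vertical axis, the authors' scale) against the expression quantile of its transcript (horizontal axis). Red points are the 7 MAX network genes with a peak, grey points all 7200 genes with a peak, and the dashed line marks MXI1, which had none. MYC sits at the upper right with a score of 6.76, and MAX near the bottom with 2.70.

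MYC encodes the growth-promoting factor for which the family is named (chromosome 8, 128817498 to 128822855, plus strand, in the coordinates of the table, whose build is not given in the sources used here). Its transcript was among the most abundant, with 71 of 25918 transcripts at a higher quantile. It carried 1 peak, at position 1901 in exon 3, the last exon (1032 nt), annotated by the authors to the stop codon segment. Placed on the matching GENCODE transcript, the peak lay 14 nt downstream of the first base of the stop codon. Of all 12769 peaks, 24 scored higher. Among the 3432 stop codon peaks 14 scored higher, and among the 1477 peaks of transcripts within 0.05 of its quantile 4 did.

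A score this high was uncommon among other highly expressed genes. Of 1319 other coding genes within 0.05 of the quantile of MYC, 67.6% had a peak, with a median top score of 3.20. Most of these genes had a lower quantile than MYC, which is near the top of the scale. Of those with a peak, 0.448% reached the score of MYC. Within 50 nt of the MYC peak there were 5 RRACH sites, the most of any peak in the network. None of them was GGACT, the form of the motif most often found under m6A peaks, and the nearest GGACT lay 79 nt upstream of the peak.

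The coding genes whose peak pattern was most like that of MYC were picked among the 1443 others with a single peak in the stop codon segment. Likeness was the sum of the differences in expression quantile and in the percentile of the top score. The nearest was C1orf77, now CHTOP, an mRNA export factor, with a quantile of 0.984 and a score of 7.26. NSUN2, an RNA cytosine methyltransferase, followed with 0.975 and 6.37. FBN2, the extracellular matrix protein fibrillin-2, had 0.961 and 6.47. DAP3, a mitochondrial ribosomal protein, had 0.972 and 5.89, and CYR61, a matricellular protein, 0.990 and 5.64. These likenesses rest on 1 table and 2 measures.

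MAX, the obligate partner (chromosome 14, 64611598 to 64638980, minus strand), had 2 weak peaks in exon 5, its last exon (1537 nt). The peak at position 678 scored 2.70 and lay 27 nt downstream of the stop codon. The peak at 1042 scored 2.41 and lay 391 nt downstream of it, in the 3' UTR. At the quantile of MAX 72.2% of other coding genes had a peak, and 77.2% of those had a top score at least as high. The RRACH site nearest to the stronger peak lay 3 nt from it. It is shown in capitals in 30 nt of the reference (GRCh38, chr14:65076434-65076463, minus strand, written 5′ to 3′ as DNA), because it is the motif nearest to the higher-scoring peak of MAX.
MAX: aggccagcaataaAAACTgtctgtctccat

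MXD1, MXD4 and MXI1 are close relatives that compete with MYC for MAX and recruit the SIN3 corepressors. MXD1 (chromosome 2, 69995707 to 70023580, plus strand) had the lowest expression of the network but 3 peaks, all in exon 6, its last exon (4848 nt). The scores were 3.11 at position 769, 3.19 at position 2439 and 4.44 at position 3075. The first lay 155 nt upstream of the stop codon and the others 1515 and 2151 nt downstream of it, deep in the 3' UTR. Of other coding genes at the quantile of MXD1 48.3% had a peak, and 8.06% had 3 or more.

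MXD4 (chromosome 4, 2218958 to 2233537, minus strand) had the same layout at a far higher quantile. At that quantile 72.4% of other coding genes had a peak. MXD4 had 2 peaks, both in exon 6, its last exon (3269 nt). They scored 2.65 at position 544, 116 nt upstream of the stop codon, and 3.57 at position 1163, 503 nt downstream of it. In both genes, then, the weaker stop codon peak lay before the stop codon, 31 nt (MXD1) and 40 nt (MXD4) into the last exon, and the highest score belonged to a 3' UTR peak. The RRACH sites nearest to those 3' UTR peaks lay 4 nt (MXD1) and 10 nt (MXD4) away. They are given in capitals, to show that the strongest peak of either gene was not on GGACT (GRCh38, MXD1 at chr2:69940422-69940451, plus strand, and MXD4 at chr4:2250019-2250048, minus strand).
MXD1: catcaaaagctcaAGACTttggaaaaagct
MXD4: ctgtgaagggcggGAACTgggtgagcacct

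MXI1 (chromosome 10, 111957353 to 112037113, plus strand) had no peak at a quantile of 0.728, where 63.9% of 2391 other coding genes had one. Its transcript held 58 RRACH sites in 3470 nt, or 1.67 per 100 nt. That was the highest density of the 8, and the lowest was 1.06, in MXD4. Of all windows of 101 nt in MXI1 80.4% held RRACH, against 82.4% in MAX and 62.3% in MXD4. Within 200 nt of its stop codon there were 11 RRACH sites, against 12 in MYC, 7 in MAX, 7 in MLX, 5 in MXD1, 5 in MNT, 4 in MGA and 2 in MXD4. GGACT occurred at 2 places in MXI1, both in the 3' UTR, and likewise at 2 in MXD1 and 2 in MXD4. In MXI1 0 of them lay within 200 nt of the stop codon, and 5.99% of windows held GGACT. Whether motif content bears on the missing peak was not tested.

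The last coding exons of the 3 relatives were aligned from the exon start to the stop codon. MXI1 matched MXD1 at 108 of 160 aligned bases (67.5%), and MXD4 matched it at 101 of 155 (65.2%). MXD1 had 2 GGACT sites there, at 0 and 21 nt from its stop codon peak. The second site had an RRACH counterpart in both relatives, which in MXD4 lay 3 nt from the listed peak. The counterpart in MXI1 is also an RRACH site, 110 nt upstream of the stop codon, but no peak was listed there. The 3 aligned sites are shown with the motif in capitals (GRCh38, MXD1 at chr2:69938133-69938162, plus strand, MXD4 at chr4:2250645-2250674, minus strand, and MXI1 at chr10:110284860-110284889, plus strand).
MXD1: tcacaggtgatctGGACTggagcagcagca
MXD4: gccctggtgagctGGACAgtgttggcagca
MXI1: cccatggagaagtGGACAatataagtacca
The first GGACT of MXD1, on which the listed position falls exactly, had no RRACH counterpart. The aligned bases were GGAGT in MXD4 and AGAGT in MXI1.

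**Figure D2:**
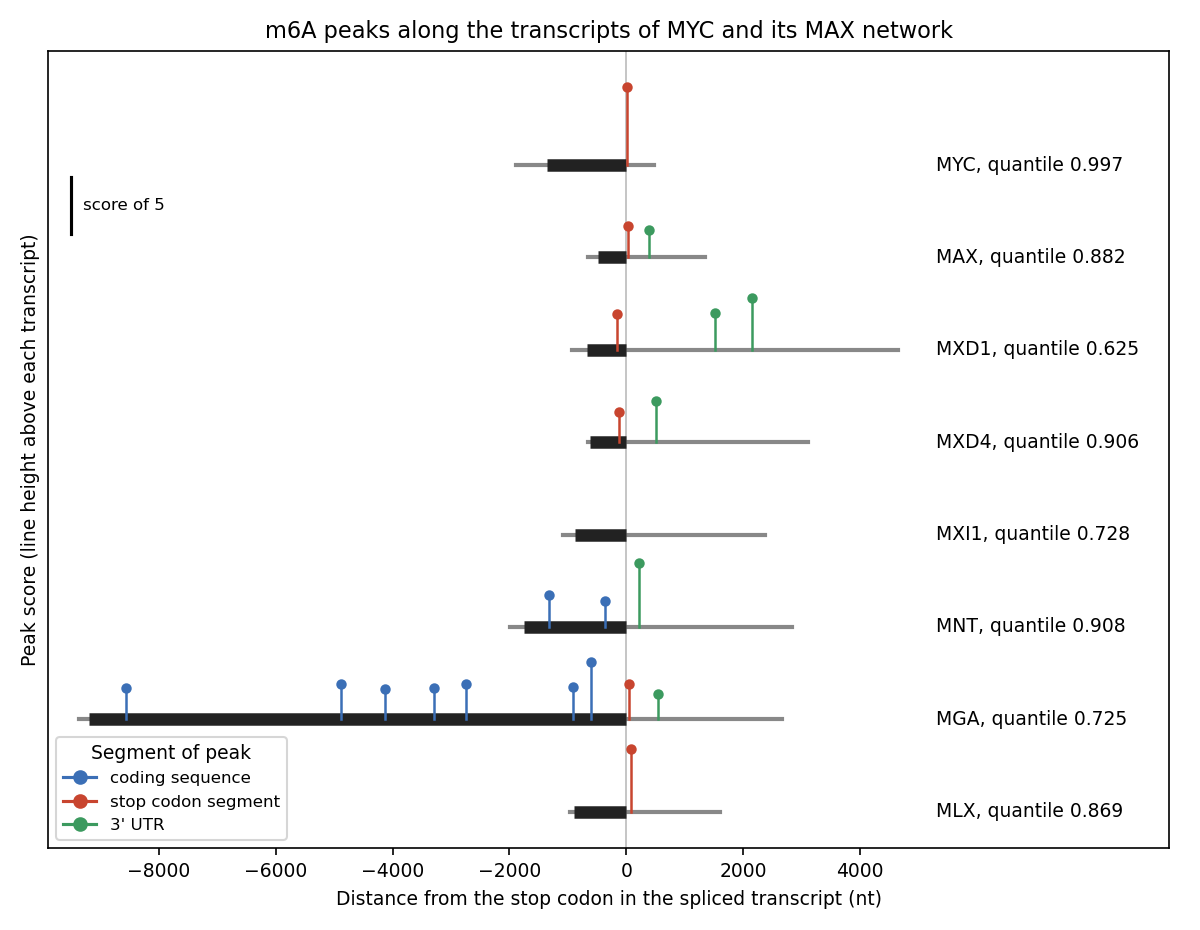
Peaks along the 8 transcripts, placed by distance from the stop codon (horizontal axis, nt). Thick bars are coding sequence and thin lines untranslated regions of the matched GENCODE transcripts, and each vertical line is a peak whose height is its score (the bar at the left stands for a score of 5). The peaks of MYC, MAX and MLX nearest the stop codon lie 14, 27 and 83 nt downstream of it, those of MXD1 and MXD4 lie 155 and 116 nt upstream, and MXI1 has none.

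MNT, a repressor that pairs with MAX in most dividing and resting cells (chromosome 17, 2234104 to 2251008, minus strand), had 3 peaks. The highest, at position 2213 in exon 6 (3590 nt), scored 5.49 and lay 214 nt downstream of the stop codon, just outside the 200 nt that bound the stop codon segment. The peaks in the coding sequence were weak, with 2.73 at position 683 in exon 2 (580 nt) and 2.27 at position 1644 in exon 6. At the quantile of MNT 72.6% of other coding genes had a peak, and of these 4.45% had a top score as high. A GGACT site lay 23 nt upstream of the highest peak, and another 24 nt downstream of the peak in exon 2. Both are shown because MNT was the only gene with a GGACT site near 2 of its peaks (GRCh38, minus strand, chr17:2386698-2386727 for the 3' UTR peak and chr17:2395059-2395088 for the exon 2 peak).
MNT 3' UTR: ccctgctgcactaGGACTtggtaagatgac
MNT exon 2: ctcccctactgccGGACTcgaaggccacca

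MGA is a very large protein that joins a MAX-binding domain to a T-box DNA-binding domain and forms part of a Polycomb repressive complex (PRC1.6). Its transcript (chromosome 15, 39739902 to 39849433, plus strand) matched a GENCODE transcript of 12042 nt and 24 exons without adjustment. It carried 9 peaks at a quantile of 0.725, and 1 of 2383 other coding genes within 0.05 of that quantile had as many. Over all coding genes in the range of expression of the network, 0.188% (17 genes) had at least 9. Among 31 other matched transcripts of 9000 to 15000 nt with a peak the median was 3 peaks and the highest 9. Per length MGA had 0.747 peaks per 1000 nt, against 0.999 in MAX, 0.620 in MNT, 0.537 in MXD1, 0.530 in MXD4, 0.424 in MYC and 0.390 in MLX.

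The peaks of MGA lay in its long exons. Of 22 internal exons, 6 had at least 400 nt, 5389 nt together, and 4 of these held 5 peaks. The 16 shorter internal exons, 2599 nt together, held 0. Whether this departs from the shares of length was not tested. The long exons with peaks were exons 2 (1131 nt), 13 (518 nt), 15 (627 nt) and 17 (1505 nt), and exons 3 (949 nt) and 8 (659 nt) had none. The last exon, 24 (3940 nt), held the other 4 peaks. Of these, 2 lay in the coding sequence, 913 and 601 nt before the stop codon, and 1 each 53 and 552 nt after it.

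In MGA 1 peak ranked far above the rest. The values in order along the transcript were 2.74 at position 817, 3.03 at 4492, 2.63 at 5241, 2.70 at 6090, 3.09 at 6630, 2.81 at 8464, 4.95 at 8776, 3.09 at 9430 and 2.17 at 9929. The peak at 8776 scored at or above 92.3% of all peaks, and the next highest of the gene, at 9430, at or above 48.2%. The peak at 9430, in the stop codon segment, scored at or above 38.9% of stop codon peaks. The distance from peak to motif in MGA was set beside that in the other genes, with no test. RRACH lay within 50 nt of 6 of 9 MGA peaks and of 12 of 12 peaks elsewhere in the network. As a background, 81.6% of all 101 nt windows of the MGA transcript held RRACH. In the other genes with a peak that share ran from 62.3% (MXD4) to 82.4% (MAX). The median distance from peak to nearest site was 45 nt in MGA against 9 nt elsewhere. The site nearest to the highest peak lay 49 nt from its listed position and is shown with another at 11 nt from the exon 13 peak, to let the far and near cases be compared (GRCh38, plus strand, chr15:41766711-41766740 and chr15:41736549-41736578).
MGA exon 24: gttgagcacttggGAACTggtttgaaagag
MGA exon 13: atctctcctgtgcAGACAgatgccctggat

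MLX, the partner of the glucose-sensing factors (chromosome 17, 37972604 to 37978747, plus strand), had a single strong peak, as MYC did. It scored 5.41 at position 1043 in exon 8, its last exon (1657 nt), 83 nt downstream of the stop codon. At the quantile of MLX 72.6% of other coding genes had a peak, and of these 5.30% had a top score as high. The 3' end of MLX overlapped PSMC3IP, a recombination cofactor on the opposite strand, by 889 nt in the table. No strand-specific step is described in the labels, so reads of MLX and PSMC3IP (quantile 0.900, no peak) cannot be told apart in the overlap. The MLX peak itself lay 631 nt before that overlap. None of the other 7 genes overlapped another entry of the table. GGACT lay 5 nt from the MLX peak, the closest of any peak in the network but that of MXD1 (GRCh38, chr17:42571674-42571703, plus strand).
MLX: ggcccgggagactGGACTacaacacctcac

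Of 21 peaks, 15 (71.4%) lay in the last exon of their transcript, against 57.3% of 1236 peaks in 653 other matched transcripts, and in 5 of the 7 genes every peak did. Leaving out MGA, 11 of 12 did. The 7 genes were placed only on transcripts whose last exon held a peak, which was not required of the 653. The shares are therefore not like for like. In the 5 genes, whose peaks all lie in the same exon, the result was fixed by this matching. By segment, 9 peaks (42.9%, 95% Wilson interval 24.5 to 63.5%) were in the coding sequence, 6 (28.6%, 13.8 to 49.96%) in the stop codon segment and 6 (28.6%, 13.8 to 49.96%) in the 3' UTR. The corresponding shares of all annotated peaks were 36.6%, 27.6% and 20.5%, each within the interval. Of the 9 coding peaks 7 belonged to MGA and 2 to MNT. The intervals cover counting error only and treat peaks as independent, although peaks share transcripts.

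No peak of the network lay within 200 nt of the transcript start or elsewhere in the 5' UTR. With 0 of 21, the interval for either class reached 15.5%, and 12.5% of all annotated peaks were start peaks, which lies within that interval. Of coding genes in the range of expression of the network, 16.5% had a start peak, 3.26% a peak elsewhere in the 5' UTR, 24.7% a coding sequence peak, 32.5% a stop codon peak and 19.2% a 3' UTR peak. In the network 0, 0, 2, 6 and 5 of the 8 genes had one. The member with the strongest single peak was a stop codon case (MYC), and the highest peak of a gene was as often in the 3' UTR (MXD1, MXD4 and MNT) as in the stop codon segment (MYC, MAX and MLX).

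RRACH was searched as its 12 pentamers on the transcript strand, with T for U, and GGACT is 1 of them. It was found within 50 nt of 18 of 21 peaks (85.7%, Wilson interval 65.4 to 95.02%). In the 653 other matched transcripts it was found near 90.2% of peaks and in 75.3% of all windows of 101 nt, and both values lie within the interval. GGACT alone was within 50 nt of 5 of 21 peaks (23.8%, 10.6 to 45.1%), against 30.9% of peaks and 10.1% of windows in those transcripts. These 5 peaks were 1 each in MXD1, MGA and MLX and 2 in MNT, and their scores ranged from 2.17 to 5.49. A nearby motif is a description of the reference sequence, not a mapped methylation site.

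**Figure D3:**
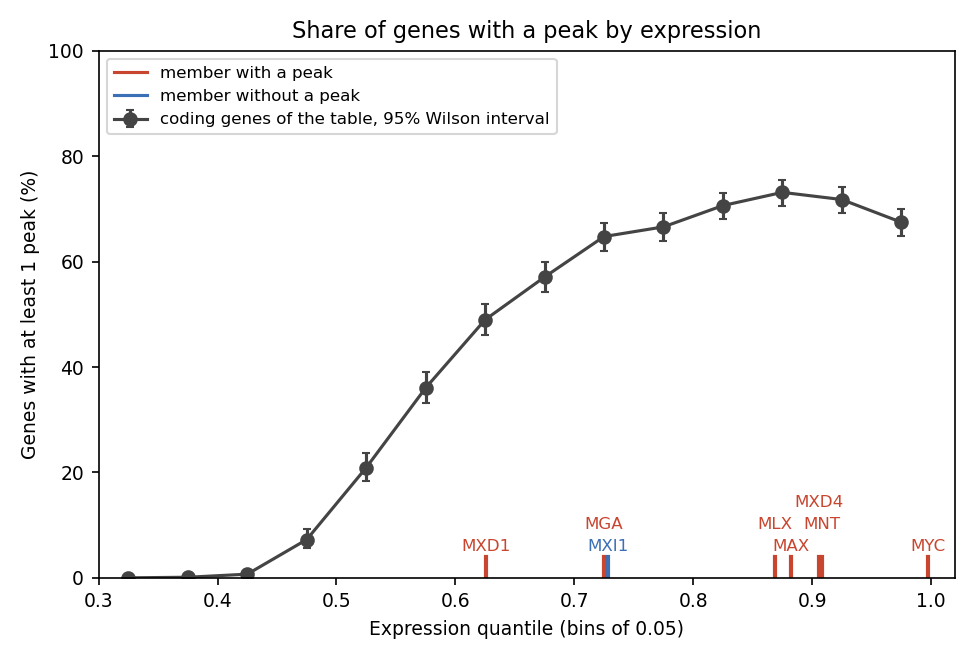
Percent of coding genes with at least 1 peak (vertical axis) in bins of expression quantile of 0.05 (horizontal axis), with 95% Wilson intervals. Ticks at the bottom mark the 8 genes, red with and blue without a peak. The bin of MXD1 has 48.96%, and the bins of the other 7 genes have 64.8% or more.

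The 8 genes had a median quantile of 0.876, against 0.712 for 5 further genes that pair with MAX or MLX. MYCN and MYCL1, the relatives of MYC, had no peak at quantiles of 0.456 and 0.485. MXD3, another of the MXD group, had a quantile of 0.920 and a stop codon peak with a score of 3.52. MLXIP, a glucose-sensing partner of MLX, had 0.835 and a 3' UTR peak with a score of 5.21. MLXIPL, the carbohydrate response factor of liver, had 0.712 and no peak. Thus 7 of the 8 genes had a peak, against 2 of these 5, a difference that was not tested. As a background, the share of coding genes with a peak in the 0.05-wide quantile bin of each gene was averaged over the list. It was 67.0% for the 8 genes and 44.3% for the 5, and in the bin of MYCN and MYCL1 it was 7.26%.

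Of 17 cofactors of MYC and of the MXD proteins, 13 (76.5%) had a peak, against a bin-matched background of 70.8%, with quantiles from 0.765 to 0.992. The highest scores were those of the corepressor SIN3A (5.74, 3' UTR), the scaffold TRRAP, which brings histone acetyltransferases to MYC (5.71, stop codon), the remodeller EP400 (4.65, 3' UTR) and the corepressor NCOR1 (4.61, stop codon). RUVBL2, a helicase of the same acetyltransferase complexes, had none at 0.992. Of 12 regulators of MYC protein stability, 10 (83.3%) had a peak, against a bin-matched background of 66.5%. The ubiquitin ligase HUWE1 had 5.76, the phosphatase subunit PPP2R5A 5.50 and FBXW7, the ligase subunit that recognises phosphorylated MYC, 5.37, each in the coding sequence. USP36, a deubiquitinase of MYC, had 6 peaks and a top score of 4.28 in the 3' UTR, while the kinase GSK3B had none at 0.869.

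The partners of MGA in PRC1.6 were marked in 3 of 9 cases (33.3%), against a bin-matched background of 56.1%. These were RYBP (3.90), TFDP1 (3.67) and RING1 (3.01), and the chromodomain protein CBX3 had none at 0.859. Their quantiles ranged from 0.564 to 0.968. Of 9 proteins that bind MYC RNA or the MYC promoter, 7 (77.8%) had a peak, against a bin-matched background of 69.0%. At the transcript start lay 5 of their 7 peaks, against 12.5% of all annotated peaks, a difference that was not tested. ELAVL1, an RNA stabiliser, had the highest score (4.05, 3' UTR), followed by HNRNPK (3.13, transcript start), IGF2BP1 (3.04, transcript start) and HNRNPU (3.01, stop codon), and YBX1 had none at 0.993.

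Genes known as targets of MYC had a median quantile of 0.961 (range 0.330 to 0.998), and 14 of 29 (48.3%) had a peak, against a bin-matched background of 63.6%. At quantiles from 0.95 to 1, 9 of 17 targets had a peak, and 67.5% of all coding genes there did. POLR1B, a subunit of RNA polymerase I, led with 6.06 in the coding sequence. The nucleolar protein NOP56 had 5.30 and the transferrin receptor TFRC 5.26, both at the transcript start, and the growth regulator PA2G4 5.23 in the 3' UTR. PTMA, an abundant nuclear protein gene, had none at 0.996. The target NME1 was not found by that symbol. None of these lists was tested against the other genes, and their differences in transcript length were not considered.

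**Figure D4:**
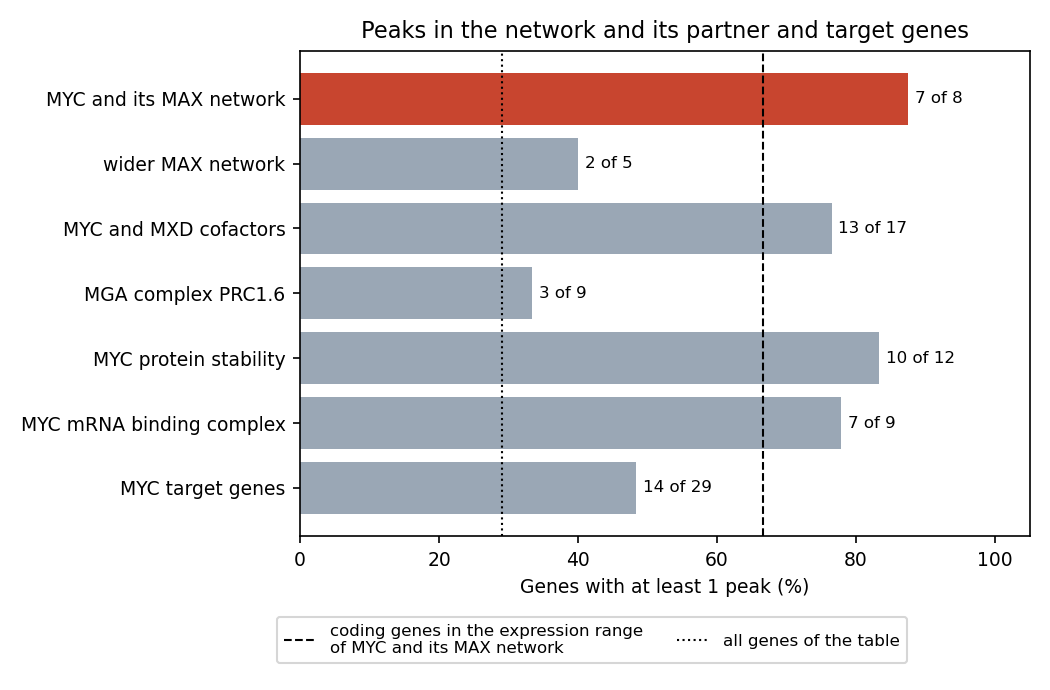
Percent of genes with at least 1 peak (horizontal axis) in MYC and its MAX network (red, 7 of 8) and in 6 lists of partners, regulators and targets (grey), with the counts beside the bars. The dotted line is the share over all gene symbols of the table (29.1%) and the dashed line that over coding genes in the expression range of the 8 genes (66.6%).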

How the data were processed

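Per the labels, poly(A)-selected RNA was fragmented chemically to about 100 nt, precipitated with an anti-m6A antibody in the m6A-IP libraries, converted to cDNA with random primers, selected at about 200 bp and amplified for 15 cycles. The authors deposited 1 table. Per the file headers, its expression quantile is a fraction from 0 to 1 that ranks transcripts, with 8139 transcripts tied at the lowest value. The deposited peak score has no stated scale, and no score was under 2.00. No aligner, peak caller or genome build is named there.

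Each of the 8 genes was placed on a coding transcript of GENCODE release 29 with the same symbol and strand. The table gives exon numbers and lengths only for exons with a peak, so internal exon lengths were compared for MNT and MGA only. For every gene with a peak, the last exon of the transcript had to hold one. MYC, MAX, MXD1, MXD4 and MLX were matched on the number of that exon, with their peaks inside it, and on the segments. The length of the last exon was not compared, since it served to set the shift of the 3' end. For 2 genes (MXI1 and MGA) the genomic span was equal too, and MXI1, having no peak, was matched by symbol and span alone. For the other 6 the last exon's length and the span gave shifts of the transcript ends, by up to 282 nt at the 5' end (MXD4) and 417 nt at the 3' end (MAX). Transcripts whose derived segments differed from the authors' were not used, so agreement of segments is by construction. Positions relative to the stop codon count from its first base. Background transcripts had equal spans and exons. Sequences are GENCODE's. Motif counts and densities of a gene, and nearest sites, were taken inside the ends of the table's transcript (for MAX, in the 1546 nt part that GENCODE's transcript covers). The shares of windows with a motif, and the counts of motifs within 50 nt of a peak, used the whole GENCODE transcript. Motif search was tested on motifs planted in simulated sequences of G and T, and exon placement on simulated transcripts without shifted ends. The inferred shifts of the ends were not tested. Named genes were all 8, the genes of the wider MAX network, and in each other list the 4 with the highest score and the most expressed one without a peak. The bin-matched backgrounds were added after seeing the data. Members, lists and markers were chosen with earlier results of these data known. The work used Python 3.11.15, pandas 2.3.3, SciPy 1.17.1 and Biopython 1.88.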

Additional observations from a re-analysis of the deposited data

How the results depend on the processing

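No paired analysis was possible because the table has no value per library. For the same reason no library could be left out. Of 34 alternative settings over 13 results, 25 left a count within 1.5 times, a share within the 95% Wilson interval of its first value, or a median within 1 SD, and 9 did not. With scores of at least 3, the peaks of the network numbered 11 instead of 21, genes of the table with a peak made up 20.1% instead of 29.1%, and 4 instead of 7 genes of the MYC RNA-binding list had a peak, while 6 of the 8 network genes still had one. The share of genes with a peak was 46.4% over coding genes above the lowest quantile, 66.6% over coding genes in the range of expression of the network and 27.9% over transcripts. With GGACT in place of RRACH, 5 peaks had the motif within 50 nt instead of 18. The score of MYC was at or above 99.8% of all peaks, 99.7% of the top peaks of genes and 99.6% of stop codon peaks. Depth per library is unknown, so whether it kept peaks from being called in MXI1, MYCN and MYCL1 was not tested.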

Other observations

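The same table lists other families of growth-related transcription factors, whose differences from the MYC network were not tested. All 7 FOS and JUN genes had a peak, against a bin-matched background of 69.9%, at quantiles from 0.868 to 0.998, with 7 of their 15 peaks in the stop codon segment and 1 at the transcript start. FOSB, an AP-1 subunit, led with 5.36, followed by FOSL2 (4.73), JUN (4.38) and JUNB (3.50). Of 11 E2F factors and RB proteins, which control entry into the cell cycle, 6 had a peak, against a bin-matched background of 57.7%, with quantiles from 0.595 to 0.932 over the 11. The MYC network had 6 stop codon and 0 start peaks among 21, of which 9 were in MGA. The E2F and RB genes had 4 and 4 among 10. Over all annotated peaks the shares were 27.6% and 12.5%. E2F3 had the highest score (7.31), followed by E2F2 (5.50), E2F4 (3.99) and E2F1 (3.80), and RBL2, a relative of RB1, had none at 0.699.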
